A study of Mus musculus with 6 samples.

Results

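Cytosolic ribosomal protein genes encode the proteins that, with ribosomal RNA, build the large (60S) and small (40S) subunits of the ribosomes in the cytoplasm. They were taken as every gene ID of the deposited files that GENCODE mouse release M21 lists as protein-coding with a symbol of Rpl or Rps and a digit, together with Rplp0, Rplp1, Rplp2 and Rpsa and without the Rps6k kinases. The rule found 92 genes among 55401 gene IDs, 57 with a large subunit symbol and 35 with a small subunit symbol. Of these, 77 are the canonical single genes of the mammalian ribosome (46 large, 31 small), and 15 are paralogs, retrocopies or genes that share only the symbol, such as Rps19bp1, an Rps19-binding protein that is not part of the ribosome. No measured value entered the rule.

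The RNA came from cells isolated from the lamina propria, the connective tissue under the epithelium of the colon wall, which holds most of its immune cells. All animals were male Apc Min/+ mice of 5 to 6 weeks. Min is a truncating allele of Apc, a suppressor of Wnt signalling, carried in the germ line by every cell, and such mice form intestinal adenomas. The vehicle group (3 libraries) was gavaged with 2% Tween 80 and the atorvastatin group (3 libraries) with atorvastatin at 20 mg/kg, both on alternate days. Atorvastatin inhibits HMG-CoA reductase, the enzyme that limits cholesterol synthesis. No wild-type or untreated group is analysed here. Nothing in the labels ties a library to an animal of its own, so a p-value here reflects library-to-library spread that could be technical.

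Ribosomal protein mRNAs are among the most abundant in growing and secreting cells, and the proteins are needed in equal numbers, so the genes are usually expressed together. Their mRNAs begin with a short run of pyrimidines, the 5′ terminal oligopyrimidine (TOP) motif, through which mTORC1 and the RNA-binding protein Larp1 set their translation and stability. In the lamina propria, plasma cells and activated lymphocytes are the cells best known for heavy protein synthesis.

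Values were FPKM, fragments scaled by gene length and by the fragment total of the library, with sums between 355787 and 456064 per library; the number of fragments is unknown. Vehicle library 3 stood apart, with a mean Pearson's r to the other libraries of 0.944 across genes against 0.957 to 0.961 for the rest. Many counts and medians, and several values that it moved, are also given without it. Immunoglobulin and T cell receptor genes held between 28.0% and 47.9% of the summed FPKM. Markers of the expected cells were present in every library: the summed FPKM of 7 plasma cell markers was between 1683 and 4582, of 10 B cell markers between 289.0 and 482.2, and of 8 T cell markers between 82.5 and 113.5. The summed FPKM of 10 colonic epithelial markers was between 22.5 and 51.6, so some epithelial RNA was present too.

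The start of the transcript is the feature for which these genes are known, so the annotated start sites of several members are shown. Each line gives 30 bases of the transcribed strand from RefSeq (build GRCm38.p6), 10 before the annotated start and 20 from it on, with the unbroken run of C and T that covers the start base in capitals. In the first 5 genes the annotated start is a C followed by at least 4 C or T. In the last 3, which are among the members with the smallest p-values, the annotated start has no such run.
Rps6 (chr4:86857348-86857377, minus strand): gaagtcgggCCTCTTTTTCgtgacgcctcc
Rps27 (chr3:90213629-90213658, minus strand): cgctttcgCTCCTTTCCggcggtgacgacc
Rplp2 (chr7:141447641-141447670, plus strand): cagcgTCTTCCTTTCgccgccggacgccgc
Rpl15 (chr14:18270967-18270996, minus strand): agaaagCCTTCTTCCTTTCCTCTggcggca
Rpl28 (chr7:4792955-4792984, plus strand): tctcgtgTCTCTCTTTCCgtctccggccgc
Rpl11 (chr4:136053374-136053403, minus strand): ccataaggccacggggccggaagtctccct
Rpl12 (chr2:32961702-32961731, plus strand): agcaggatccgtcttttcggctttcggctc
Rps13 (chr7:116334171-116334200, minus strand): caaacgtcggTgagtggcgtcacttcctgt

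RefSeq start windows were matched for 57 of the 77 canonical genes. A C followed by at least 4 C or T stood exactly at an annotated start in 13 of these 57 (22.8%), against 3.01% of all 27025 genes with a window and 0 of 69 mitochondrial ribosomal protein genes. A C followed by at least 7 C or T lay within 50 bases of the start, on the transcribed strand, in 48 of 57 (84.2%), against 32.7% of the genes tested for expression and 31.9% of the mitochondrial ribosomal protein genes. In most of these genes the run therefore lay near the annotated start but not on it, and the base at which transcription starts was not measured here. The sequence CCGGAAGT, a site for ETS factors such as GABP, was found on either strand of the 300-base window in 19.3% of canonical genes, 17.4% of mitochondrial ribosomal protein genes, 9.16% of genes tested and 4.31% of all genes. The sequence AAGATGGC, the core of the YY1 motif, was found in 8.77%, 17.4%, 5.33% and 3.19%, and TATAAA in 10.5%, 7.25%, 9.26% and 15.7%. The YY1 sequence was thus found in a smaller share of canonical genes than of mitochondrial ribosomal protein genes.

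With atorvastatin, ribosomal protein mRNAs were lower as a body in both subunits, although no single gene passed the test. Of the 92 genes, 87 reached 1 FPKM in at least 3 libraries and were tested, and all 87 had a lower mean of log2(FPKM + 1) with atorvastatin, where 53.0% of all 13590 genes tested were lower. With libraries scaled to equal sums over all genes, or over all but immunoglobulin and T cell receptor genes, 86 were lower, the exception being Rpl7l1. The median log2 difference was -0.36, with quartiles of -0.41 and -0.29, against -0.02 for all genes tested. The median canonical gene stood at 77.8% of its vehicle mean, and the range over canonical genes was 53.7% to 91.4%.

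In limma over all 13590 genes, 0 passed a false discovery rate of 0.05 (0% called), and the members' adjusted p-values lay between 0.6925 and 0.909. At an unadjusted p under 0.05, 24 of the 87 members were lower, where 4.04% of all genes tested were, and 0 were higher, where 3.13% of all genes were. The 3 atorvastatin values all lay below the 3 vehicle values for 47 members, where the same held for 8.85% of all genes. They lay above for 0 members, against 5.53% of all genes. With libraries scaled to equal sums over all genes, the count without overlap was 17 (3.05% of all genes) and that at an unadjusted p under 0.05 was 2 (1.07%). With immunoglobulin and T cell receptor genes left out of the sums these counts were 49 (4.56%) and 17 (1.87%), and with mitochondrial and ribosomal genes left out as well 60 (6.57%) and 25 (2.91%). The members were chosen with earlier results known and share their libraries, so these counts describe the set and are not a test of it. In bulk RNA, fewer cells of a type that is rich in these mRNAs and less of the mRNA in each cell cannot be told apart.

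Within the groups there was 1 high vehicle library and 2 low atorvastatin libraries. The median canonical gene deviated from its mean over the 6 libraries by 0.11, 0.07 and 0.35 on the log2 scale in vehicle libraries 1 to 3 and by -0.00, -0.26 and -0.25 in atorvastatin libraries 1 to 3. Vehicle library 3 held the highest value of 67 of the 77 canonical genes. Atorvastatin library 2 held the lowest value of 40 and atorvastatin library 3 of 36. Atorvastatin library 2 lay below all vehicle libraries for 75 genes, the exceptions being Rpl36 and Rps20, and library 3 for 76, the exception being Rpl7a. Atorvastatin library 1 did so for 47.

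**Figure D1:**
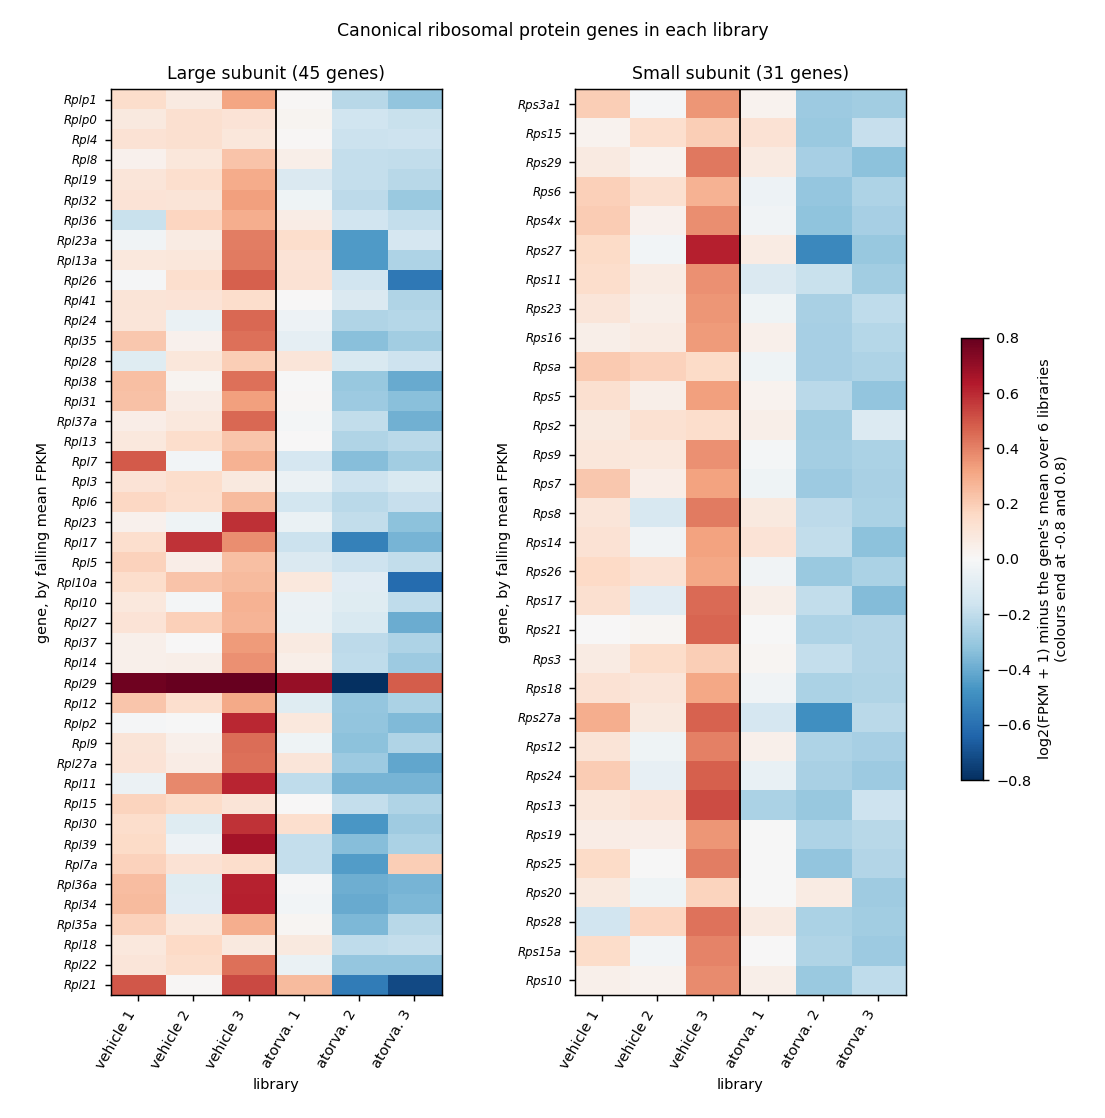
Each row is 1 of 76 canonical ribosomal protein genes and each column a library; the colour is log2(FPKM + 1) minus the gene's mean over the 6 libraries, from -0.8 to 0.8. Vehicle library 3 is the highest of the 6 libraries in 66 of these genes, atorvastatin libraries 2 and 3 are blue in nearly all rows, and Rpl29 breaks the pattern by a single very low value in atorvastatin library 2.

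Without vehicle library 3, which stood apart, 86 of the 87 members were lower, the groups did not overlap for 48 (17.2% of all genes), 9 had an unadjusted p under 0.05 (4.47% of all genes), and the median difference was -0.27, against -0.03 for all genes. For 31 of the 87 the difference shrank by more than 1.5 times or changed sign. With 2 libraries in a group separation is easier to reach, so the shares of all genes are also higher than with 3. Without vehicle library 1, atorvastatin library 2 or atorvastatin library 3 the count at an unadjusted p under 0.05 was 7 (2.93% of all genes), 6 (2.78%) and 7 (2.42%). Without atorvastatin library 1 the groups did not overlap for 80 members (13.9% of all genes), and the median difference was -0.44.

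Summed over the 92 genes, the FPKM were 22019, 21530 and 25604 with vehicle and 20326, 16879 and 17030 with atorvastatin, or 23051 ± 2225 against 18078 ± 1948 (SD, n = 3). All vehicle sums lay above all atorvastatin sums. As a share of all FPKM of the library they were 5.41%, 5.22% and 6.08% with vehicle and 5.38%, 3.70% and 4.79% with atorvastatin, and here the groups overlapped, since atorvastatin library 1 lay between the vehicle libraries. When immunoglobulin and T cell receptor genes, which took 47.9% of atorvastatin library 2, were left out of the total, the shares were 8.41%, 8.48% and 8.73% against 7.71%, 7.11% and 6.65%. On that base the groups did not overlap, with 8.54% ± 0.168 and 7.16% ± 0.535 (SD, n = 3), and vehicle library 3 lay close to the other vehicle libraries. That closeness depended on the base. With mitochondrial genes left out as well, the shares were 9.09%, 9.07% and 9.7% against 8.25%, 7.63% and 7.14%. The groups were again separate, but vehicle library 3 lay further above the other vehicle libraries.

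**Figure D2:**
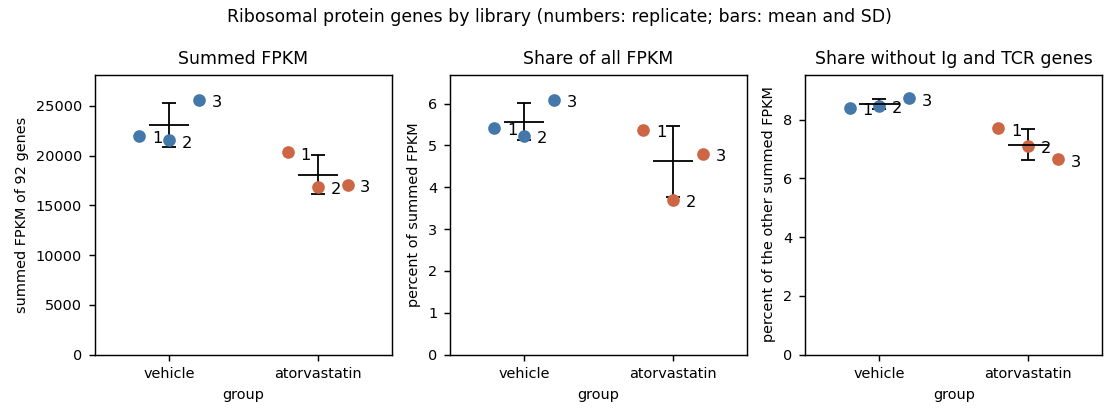
The summed FPKM of the 92 genes (left), their percent of all FPKM (middle) and their percent of the FPKM outside immunoglobulin and T cell receptor genes (right), by group; points are libraries numbered by replicate, and bars give the mean and SD of 3. The groups are separate in the left and right panels and overlap in the middle one.

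Among large subunit members, 52 were tested, 19 had an unadjusted p under 0.05, 30 had groups that did not overlap, and the median difference was -0.38. Among small subunit members, 35 were tested, and the numbers were 5, 17 and -0.34. Of all genes tested, 4.04% were lower at an unadjusted p under 0.05 and 8.85% were lower without overlap. With the canonical genes alone, a restriction chosen after the data were seen, the medians were -0.38 and -0.35. Without vehicle library 3 the medians of large and small subunit members were -0.28 and -0.24, with 7 and 2 at an unadjusted p under 0.05 (4.47% of all genes). The difference between the subunits was not tested. Within the canonical genes, 50 of 77 lay within 0.1 of the median of -0.36, and the median standard error of a gene was 0.17, so most genes could not be ordered among themselves.

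The most abundant member was Rplp1, an acidic protein of the ribosomal stalk, the arm of the large subunit that recruits elongation factors. Rplp1 (chr9:61913284-61914542, mm10) had 1410, 1346 and 1590 FPKM with vehicle and 1285, 1096 and 1029 with atorvastatin. The groups did not overlap, and the log2 difference was -0.35 (SE 0.22, adjusted p = 0.723 in limma). Rplp0, the base of the stalk, had 760.5, 788.8 and 778.7 FPKM with vehicle and 730.5, 644.5 and 636.6 with atorvastatin. Its vehicle values lay close together, vehicle library 3 included, and all 3 atorvastatin values were lower (log2 difference -0.21, SE 0.18). Rplp2, the partner of Rplp1, had 116.0, 116.6 and 177.8 FPKM against 123.9, 93.5 and 91.1, so that only vehicle library 3 was clear of atorvastatin library 1. Its log2 difference was -0.39 with that library and -0.19 without it.

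The other abundant large subunit genes differed by similar amounts. Rpl4, whose protein lines the exit tunnel, had 716 ± 8.17 FPKM in vehicle libraries and 615 ± 45.1 in atorvastatin libraries (SD, n = 3), and its 3 vehicle values all exceeded its highest atorvastatin value. Rpl19, which also lies near the tunnel exit, had 607 ± 45.3 and 474 ± 18.3, without overlap. Rpl8, a protein near the peptidyl transferase centre, had 596 ± 41.5 and 508 ± 50.4, and atorvastatin library 1 (565.9) overlapped vehicle library 1 (560.7).

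In the small subunit, Rps6, the substrate of the S6 kinases downstream of mTORC1, had 598.3, 571.7 and 635.7 FPKM with vehicle and 509.1, 421.7 and 442.0 with atorvastatin. The groups did not overlap, and the log2 difference was -0.40 (SE 0.17). Rps4x had 597 ± 69.8 and 449 ± 49.2 FPKM (SD, n = 3), also without overlap. Rpsa, which is known as a laminin-binding protein as well as a ribosomal one, had 392.1, 386.3 and 377.6 FPKM against 330.5, 282.3 and 285.5. Vehicle library 3 was the lowest of the 3 vehicle values for Rpsa, so that its separation does not rest on that library. Rps3a1, Rps15 and Rps29 were the other most abundant small subunit genes, with log2 differences of -0.36, -0.24 and -0.35, and in each the value of atorvastatin library 1 lay within the vehicle range.

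The 10 members with the smallest p-values included Rpl17, Rpl9-ps6, Rpl12, Rpl11, Rps27a, Rpl22, Rps13, Rpl6 and Rpl7, and the 10 had log2 differences from -0.36 (Rpl6) to -0.72 (Rpl17). All 10 had an adjusted p of 0.6925 in limma. Their groups did not overlap, which largely follows from choosing them by the smallest p. The same held for 47 of the 87 members and 8.85% of all genes. Rpl17, a protein at the rim of the exit tunnel, had 169.5, 230.4 and 199.8 FPKM with vehicle and 136.9, 105.5 and 119.0 with atorvastatin, a log2 difference of -0.72 (SE 0.18). Rpl12, which sits at the base of the stalk, had 145.8, 137.1 and 153.8 against 116.3, 100.2 and 104.6 FPKM (-0.44, SE 0.13). Rpl6 had 186 ± 7.98 and 144 ± 3.57 FPKM (SD, n = 3), one of the tightest separations among the members.

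Rpl5 and Rpl11 carry 5S ribosomal RNA into the large subunit and, when assembly is disturbed, bind the p53 regulator Mdm2. Rpl11 had 98.7, 133.4 and 156.1 FPKM with vehicle and 88.4, 78.6 and 78.5 with atorvastatin. The vehicle libraries spread widely, the atorvastatin libraries little, and the log2 difference was -0.63 (SE 0.19). Rpl5 had 178.8, 162.9 and 186.1 against 144.9, 140.1 and 137.2 FPKM, with a difference of -0.32 (SE 0.13), close to the median of all members.

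Of 8 genes whose proteins ring the exit of the tunnel through which the nascent chain leaves (Rpl17, Rpl19, Rpl22, Rpl23a, Rpl26, Rpl31, Rpl35, Rpl39), all were lower, with a median difference of -0.43. At an unadjusted p under 0.05, 5 of them were lower, where 4.04% of all genes tested were. Without vehicle library 3 that count was 2 (4.47% of all genes) and the median was -0.33. Of 9 genes mutated in Diamond-Blackfan anaemia, an inherited failure of red cell production, all were lower, with a median of -0.38. At an unadjusted p under 0.05, 5 of the 9 were lower (4.04% of all genes). Without vehicle library 3 that count was 1 (4.47% of all genes) and the median was -0.28. Rps19, the gene of that disease found mutated most often, had 70.2, 69.7 and 86.2 FPKM against 67.0, 56.5 and 57.5 (log2 difference -0.31, SE 0.14). Both lists overlap with the members already described. The Diamond-Blackfan median lay close to the -0.36 of all 87 members, and the exit ring median lay below their lower quartile of -0.41. Whether either list differs from the other members was not tested.

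Genes with a paralog in the set were compared pair by pair. Rpl22 had 43.1, 44.4 and 54.8 FPKM against 38.7, 32.2 and 32.2 (-0.45, SE 0.15), and its paralog Rpl22l1 had 23.5, 19.1 and 36.5 against 19.8, 15.8 and 19.0 (-0.47, SE 0.24). The groups were separate for Rpl22 and overlapped for Rpl22l1, whose difference was -0.21 without vehicle library 3. Rpl7 was lower by a wider margin (-0.50, SE 0.18) than Rpl7l1. Rpl7l1, a protein of ribosome assembly rather than of the mature ribosome, had 16.9, 17.0 and 17.9 FPKM against 17.3, 15.6 and 17.0, a difference of -0.05 (SE 0.10) and the smallest of all tested members. Under several scalings Rpl7l1 was level or slightly higher, up to 0.04. Whether the differences of a pair differ from each other was not tested.

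Rpl36a (-0.51, SE 0.21) and its paralog Rpl36al (-0.21, SE 0.16) were at similar levels, with 84.1 ± 20.8 and 90.8 ± 8.99 FPKM with vehicle (SD, n = 3), and the groups overlapped in both. Rps27 had 509.2, 449.9 and 705.4 FPKM against 478.6, 320.5 and 370.5 (-0.50, SE 0.25), and vehicle library 3 was far above the rest. Without it the difference of Rps27 was -0.32. Rps27l, a p53 target, was about an order of magnitude lower, with 40.5 ± 9.83 and 32.3 ± 3.86 FPKM. Rps27rt, a single-exon retrocopy, varied without regard to group, with 70.7, 116.5 and 188.5 against 66.8, 125.1 and 91.3. Its difference was -0.34 (SE 0.39), 0.10 with array weights and 0.01 without vehicle library 3. Rpl39 (-0.52, SE 0.20), Rpl3 (-0.22, SE 0.13), Rpl10 (-0.23, SE 0.14) and Rpl9 (-0.40, SE 0.17) all had separate groups. Without vehicle library 3, Rpl36a was at -0.33, Rpl36al at -0.13, Rps27l at -0.12 in place of -0.29, Rpl39 at -0.31 and Rpl10 at -0.15.

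The tissue-restricted paralogs were at or near 0. Rpl3l, a gene of heart and skeletal muscle, had 0.02 to 0.13 FPKM, Rpl39l, known from testis, 0.00 to 0.50, and Rpl10l, also from testis, at most 0.02. Rpl9-ps1 was listed at 0 in all libraries but 1, and Rpl36-ps4 was listed at 0 in all 6. None of the 5 could be tested in the model, and exact two-sided permutation tests of the mean FPKM gave p = 0.1 for Rpl3l, the smallest p that 3 libraries against 3 allow, and p = 1 for the other 4.

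Rpl29, a large subunit protein also described as a heparin-binding protein, had the widest difference, but from a single library. Its values were 152.9, 190.9 and 165.0 FPKM with vehicle and 144.2, 4.81 and 124.2 with atorvastatin. The groups did not overlap, and the difference of -1.85 had an SE of 1.17 and an adjusted p of 0.730 in limma. Rpl29 was the only protein-coding gene with at least 20 FPKM in the other 5 libraries that was under a sixth of all of them in atorvastatin library 2. Without that library the difference of Rpl29 was -0.33 (SE 0.17), close to the median of the members. Of its neighbours on chromosome 9, Parp3 was lowest in that library by a small margin (9.91 FPKM, against 10.3 to 16.2), and Abhd14b was lowest too (2.18 against 2.82 to 5.26). Dusp7 was tied for lowest with atorvastatin library 1 (2.99). Within the range of the other libraries lay Rrp9 (9.64 against 8.86 to 12.3), Abhd14a (5.89 against 5.24 to 7.14) and Pcbp4 (3.11 against 2.25 to 3.33). Acy1 (1.69 against 1.36 to 1.73) and Gpr62 (0.56 against 0.53 to 1.19) did too. The origin of the low value was not tested.

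Rpl10-ps3, an intronless copy that M21 lists as coding, showed the opposite case, with 55.6 FPKM in vehicle library 1 and 5.98 to 10.8 in the other 5. The pseudogene Rpl10-ps1 followed it, with 44.1 FPKM in vehicle library 1 and 5.15 to 10.5 elsewhere, while Rpl10 itself was not raised there (157.8 FPKM, against 147.8 and 181.2 in the other vehicle libraries). These copies are close to identical, so reads may have been divided among them, and their single values are uncertain.

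Levels and differences were not related in a simple way. Mean FPKM over the 6 libraries ran from 34.9 (Rpl21) to 1293 (Rplp1) among canonical genes, 37.0-fold, although the proteins are used in equal numbers. Across the 77 genes, Pearson's r between the log2 annotated length and the log2 level was -0.65; FPKM divides by a length, so the points share it. The r between level and difference was 0.22 and between coding transcript length and difference 0.07, both across genes, which are not independent.

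**Figure D3:**
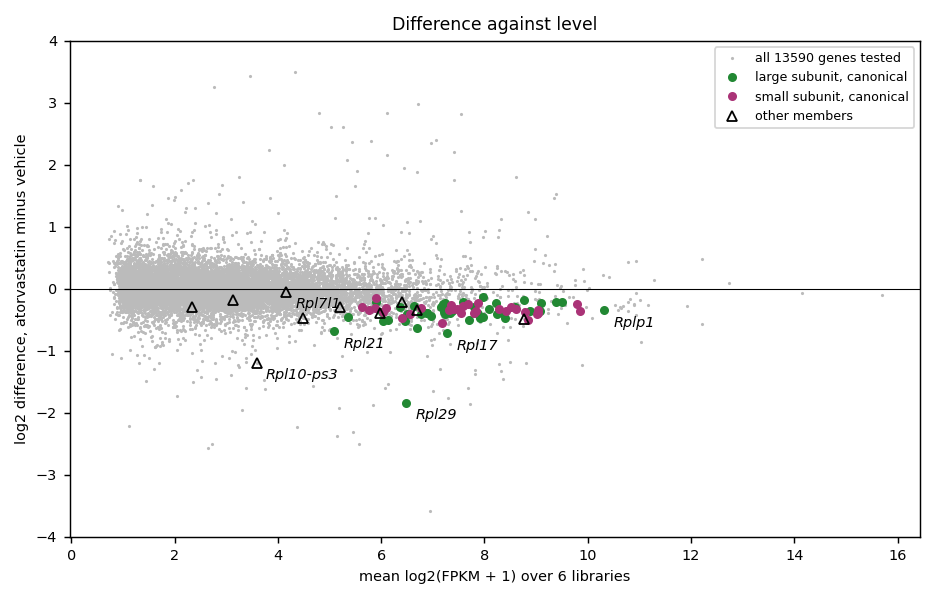
The x axis is the mean of log2(FPKM + 1) over the 6 libraries and the y axis the log2 difference of atorvastatin minus vehicle; grey points are all 13590 genes tested, green and purple points canonical large and small subunit genes, and triangles the other members. The members form a narrow band below 0 around -0.36, with Rpl29 (-1.85) and Rpl10-ps3 (-1.20) outside it.

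When each library was set to the same median of the canonical genes, so that only departures from their common movement remain, 0 of 87 members had an unadjusted p under 0.05 in either direction in limma and 0 passed after adjustment. The remaining differences ran from -1.51 (Rpl29) to 0.28. Rpl17 kept -0.37 (SE 0.20), Rpl21 -0.34 (SE 0.22) and Rpl11 -0.28 (SE 0.19). The scaling was set on the canonical genes themselves, so a low count among the members is partly built into it. The share of all genes under this scaling is not given here, so the count has no background beside it. This scaling cannot show a difference shared by all members, and a p above the threshold does not show that they differed by the same amount.

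Members were compared next by the sequence at the annotated start. The 13 canonical genes with a C and at least 4 C or T there had a median difference of -0.35 (range -0.50 to -0.13), and the 44 without had -0.37 (range -0.63 to -0.21). The 44 include genes such as Rpl7a, in which a long run covers the start but the start base is a T. By a run of at least 5 C or T covering the start, the 20 genes with it had -0.38 and the 37 without -0.36. Rpl28, with the TOP start shown above, had the smallest difference of all canonical genes (-0.13, SE 0.16), and Rpl11, without it at its annotated start, one of the widest. The 48 genes with a longer run within 50 bases of the start had -0.37 and the 9 without -0.36.

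Ribosomal protein genes have many processed pseudogenes, intronless copies whose sequence is close to that of the mRNA, and the sources used here do not say how reads were divided between them. The files list 290 such pseudogenes by symbol. Their summed FPKM came to between 20.6% and 25.1% of that of the 92 genes. Of 123 tested, 97 were lower, 9 at an unadjusted p under 0.05 (4.04% of all genes), with a median difference of -0.25. The median of the pseudogenes without vehicle library 3 was -0.01, with 62 of 120 lower. Of the 77 canonical genes, 56 have pseudogenes that carry their name, and in 11 these had more FPKM together than the gene. The ratio of pseudogenes to gene was 13.6 for Rpl21, 5.61 for Rps10 and 4.62 for Rpl17. Rpl21-ps15 alone had 217.2 to 548.1 FPKM, where Rpl21 had 19.6 to 48.1.

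Summing each gene with the pseudogenes named after it, a step chosen after the data were seen, left all 87 lower and a median of -0.34. The count at an unadjusted p under 0.05 was 15 (3.98% of all genes) in place of 24 (4.04%). Among the genes with the widest differences, several depended on the summing. Rpl17 went from -0.72 to -0.27 (SE 0.21), since Rpl17-ps10 had 187.8 to 285.9 FPKM with vehicle and 219.5 to 296.2 with atorvastatin. Rps13 went from -0.48 to -0.02 (SE 0.30), Rps27a, whose protein is made as a fusion with ubiquitin, from -0.56 to -0.26 (SE 0.23), and Rpl31 from -0.41 to -0.21 (SE 0.16). Rpl21 kept most of its difference, from -0.69 to -0.60 (SE 0.30). The 21 canonical genes without a named pseudogene had a median difference of -0.34, close to that of the set. Copies annotated under unrelated symbols were not counted. Copies that M21 lists as coding were not counted either. One of these, Rps12-ps3, had a mean of 445 FPKM, against 109 for Rps12 and 161 for the pseudogenes summed with it.

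**Figure D4:**
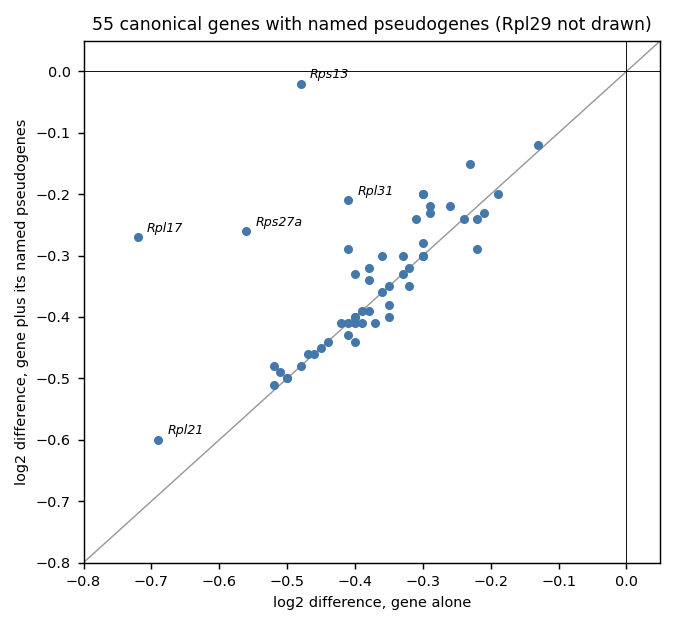
Each point is 1 of 55 canonical genes with named pseudogenes (Rpl29, at -1.85 and -1.84, is beyond the axes); the x axis is the log2 difference of the gene alone and the y axis that of the gene summed with its pseudogenes, with a line of equality. Most genes lie near the line, and Rpl17, Rps13, Rps27a and Rpl31 lie well above it.

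Other genes of the ribosome and of translation had medians between those of the members and of all genes. The 17 other TOP mRNAs of translation had a median difference of -0.21, with 15 lower. The groups did not overlap for 6 (8.85% of all genes), and 0 had an unadjusted p under 0.05 in limma (4.04%). Eef1a1, the elongation factor that delivers transfer RNA, had 2199 ± 26.1 FPKM in vehicle libraries and 1932 ± 76.3 in atorvastatin libraries (SD, n = 3; -0.19, SE 0.23). Tpt1, a growth-linked TOP gene, had -0.31 (SE 0.23) and Rack1, a scaffold on the small subunit, -0.21 (SE 0.18), while Eef2, the translocation factor, was at 0.02 (SE 0.20). Fau, which encodes a ribosomal protein fused to a ubiquitin-like protein, had -0.23 (SE 0.19), and its groups overlapped. The 7 noncoding snoRNA host genes, several of them TOP transcripts, had a median of -0.20, with Gas5 at -0.21 (SE 0.22) and Snhg8 at -0.20 (SE 0.24), the latter at 0.10 with array weights. Without vehicle library 3 the other TOP mRNAs had a median of -0.13, with all 17 lower, Tpt1 was at -0.14, and the snoRNA host genes had a median of -0.01.

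The apparatus that makes ribosomes and starts translation lay nearer to 0. The 25 initiation factors had a median of -0.11, with Eif1 at -0.12 and Eif3c at -0.02. Of the 25, 21 were lower, 1 at an unadjusted p under 0.05 (4.04% of all genes). The 28 ribosome assembly factors had -0.06 (17 lower, 11 higher), with Npm1 at -0.28 (SE 0.19) and Ncl at -0.07 (SE 0.15). RNA polymerase I, which transcribes ribosomal RNA, had 4 of 7 genes lower and a median of -0.02, with Polr1d at 0.08 and Polr1c at -0.02. Of 12 regulators of ribosome synthesis 6 were lower and 6 higher, with a median of -0.00. Without vehicle library 3, 10 of the 12 regulators were lower, with a median of -0.06. On that base the initiation factors, assembly factors and RNA polymerase I had medians of -0.09, -0.07 and -0.02. Myc had -0.19 (SE 0.23; -0.02 without vehicle library 3), Mtor 0.13 (SE 0.18) and Eif4ebp1 -0.06 (SE 0.14). Larp1 had 41.96, 23.19 and 12.01 FPKM against 39.11, 23.98 and 37.58 (0.51, SE 0.43). The difference was 0.07 without vehicle library 3 and -0.09 with array weights. Larp1 was lowest in vehicle library 3, and so was Mtor (4.43 FPKM, against 6.34 to 7.23 in the other libraries). The median deviation of the 12 regulators in that library was -0.22, so a low value there is not particular to Larp1.

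The mitochondrial ribosome is encoded by other genes, and these had a median nearer to 0 than the cytosolic ones. Of all genes tested, 53.0% were lower, 4.04% at an unadjusted p under 0.05 and 8.85% without overlap. Of 78 mitochondrial ribosomal protein genes 70 were lower, 11 at an unadjusted p under 0.05 and 27 without overlap, with a median of -0.17. Of 85 nuclear genes of the respiratory chain 78 were lower, 12 and 25 by the same measures, with a median of -0.21. The most abundant of them were Mrpl54 at -0.34 (SE 0.14), Mrpl30 at -0.07, Cox6a1 at -0.08 and Cox8a at -0.13. Whether these medians differ from that of the cytosolic genes was not tested. In both lists vehicle library 3 had the highest median deviation, 0.18 and 0.31. Without it the medians were -0.11, with 63 of 78 lower, and -0.10, with 71 of 84 lower.

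**Figure D5:**
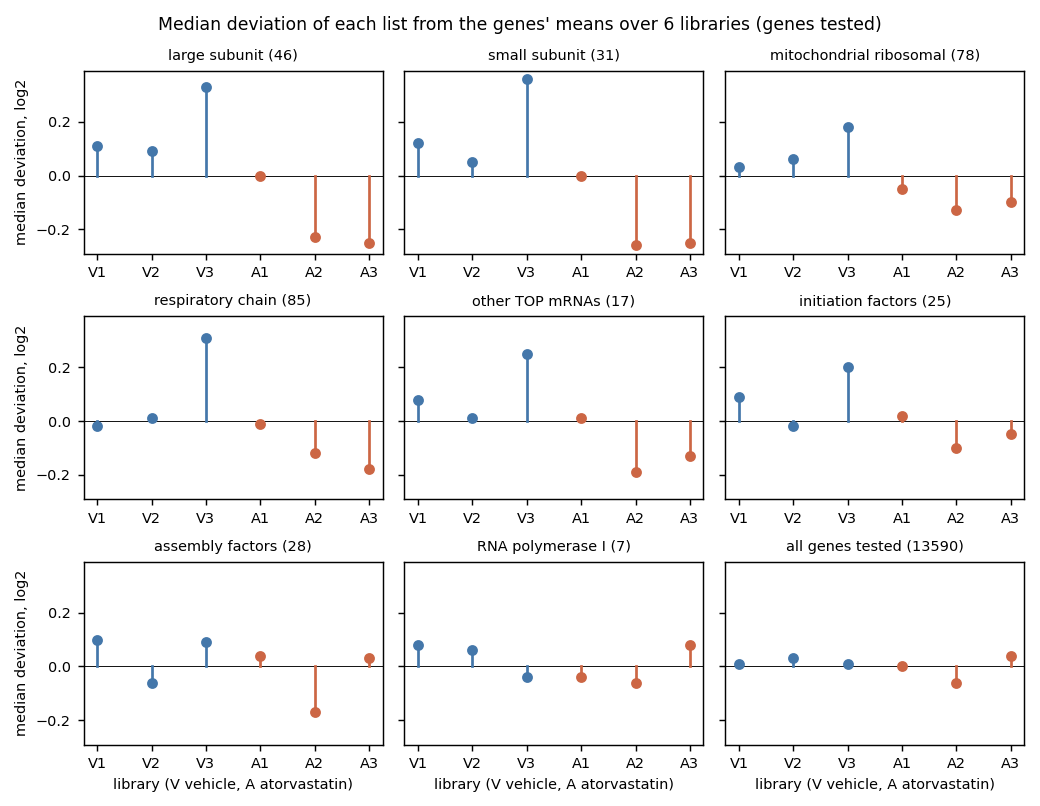
Each panel is a gene list with its number of tested genes; points give, for each library (V vehicle, A atorvastatin), the median over the list of log2(FPKM + 1) minus the gene's mean. Both subunits run from 0.33 or more in vehicle library 3 to -0.23 or less in atorvastatin libraries 2 and 3, the mitochondrial, respiratory chain and other TOP lists are also highest in vehicle library 3 and below 0 in atorvastatin libraries 2 and 3, and RNA polymerase I and all genes stay within 0.08 of 0.

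Other measures differed between the groups alongside these genes. Canonical ribosomal protein mRNAs are short, and across all protein-coding genes tested the r between coding transcript length and difference was 0.28. Among the 1563 other protein-coding genes whose length lay in the middle range of the canonical genes (558 to 937 bases), 67.2% were lower, 6.01% at an unadjusted p under 0.05, with a median of -0.08. Among 153 other protein-coding genes with similar FPKM (109 to 335), 58.2% were lower, 7.19% at an unadjusted p under 0.05, with a median of -0.04. With the trend on length removed in each library the median of the members was -0.26. The part of RNA integrity or library preparation in this was not tested.

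Among cell type markers, all 10 B cell markers were lower with atorvastatin, 5 at an unadjusted p under 0.05, where 4.04% of all genes were. Their summed FPKM were 420.8, 482.2 and 371.5 against 312.5, 289.0 and 297.5. Within the vehicle group the B cell sum was lowest in library 3. All 8 epithelial markers tested, of 10 listed, were lower too. Their sums were 38.8, 51.6 and 48.5 against 26.1, 51.4 and 22.5, and atorvastatin library 2 lay within the vehicle range. The plasma cell sum overlapped fully, with 3732, 3231 and 1683 against 2539, 4582 and 2176. All 8 macrophage markers were higher, with sums of 65.3, 98.9 and 140.9 against 120.3, 116.1 and 109.6. All 9 genes of the dissociation response, immediate early and heat shock genes induced while cells are isolated, were higher, with sums of 5770, 5627 and 5758 against 7882, 6332 and 8815, without overlap of the groups. The 4 neutrophil markers tested, of 5 listed, were lower, 2 at an unadjusted p under 0.05 (4.04% of all genes). Their median was -0.39, with sums of 8.72, 16.1 and 12.8 against 10.1, 6.83 and 6.12. The neutrophil median without vehicle library 3 was -0.00 over 3 markers tested, the macrophage median 0.38 and the B cell median -0.50. All 6 smooth muscle markers were higher, 1 at an unadjusted p under 0.05 (3.13% of all genes), with a median of 0.18 and overlapping sums. Of 5 endothelial markers 4 were higher, with a median of 0.23. Without vehicle library 3 the smooth muscle median was 0.49 and the endothelial median 0.07, with 2 of 5 endothelial markers lower. The medians of the T cell, plasma cell, fibroblast and erythroid lists were -0.12, 0.04, 0.09 and -0.10. Without vehicle library 3 they were -0.24, -0.19, 0.14 and -0.23, with 6 of 7 plasma cell markers lower. The part of these cells and of dissociation in the ribosomal protein values was not tested.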

How the data were processed

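RNA-seq of 6 libraries was used, 3 vehicle and 3 atorvastatin, 1 deposited table each, and 0 value columns were left unmapped to a sample. The deposited tables give FPKM, which the authors scaled by gene length and library before deposit. FastQC 0.11.2, Bowtie and build mm10 are named, per the submitters' processing notes; no source used here gives the quantifier, annotation, strand setting or handling of reads that match several places. Fragment counts could not be recovered, so the depth is unknown and count-based tests were not run. Symbols, gene types, positions and lengths came from GENCODE M21, which matched the position of 51957 of 55401 gene IDs; 260 had no symbol.

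The test took the 13590 genes that reached 1 FPKM in 3 or more libraries and was run on log2(FPKM + 1) with limma 3.58.1 (limma-trend, R 4.3.3) and Benjamini-Hochberg adjustment at 0.05. These fold changes understate those of low genes. Standard errors are limma's, with n = 3 per group. Lists are described by counts and medians with no set test. The members and lists were chosen with earlier results of these data known. Genes were named by rule: the 5 most abundant members of each subunit, the 10 with the smallest p, any member above 0, the stalk, 5S and paralog lists, Rpsa, Rps6, Rps19, members below the filter, and the 2 most abundant genes of each other list with 9 set genes. Others (Rpl28, Rpl29, Rpl10-ps3, Rps12-ps3, Rps12, Rpl21, Rpl31, Rps20, Rpl36, Rpl7a, Rpl15, neighbours of Rpl29 and pseudogenes) were named after their values were seen. Results of 2 of these genes are not reported here. Start windows came from RefSeq. The model was tested on simulated data. Alternatives covered the pseudocount, filter, scaling, length, gene types, variance, array weights, a replicate block and leaving out each library. Values of whole lists without vehicle library 3 were added after seeing the data.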

Additional observations from a re-analysis of the deposited data

How the results depend on the processing

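No setting changed the direction of the median of the members or of either subunit: the members' median ranged from -0.44 to -0.26. Of the 87 members tested, 83 were lower with array weights, which gave vehicle library 1 a weight of 5.39 and vehicle library 3 one of 0.27, and 86 or 87 with the other settings. The count at an unadjusted p under 0.05, 24 as deposited, was 2 with equal sums over all genes (1.07% of all genes), 14 with median-of-ratios scaling (3.18%) and 15 with pseudogenes summed (3.98%), and 6 to 27 when each library was left out in turn, where 2.42% to 4.75% of all genes were. The count without overlap, 47, was 17 with equal sums over all genes (3.05% of all genes), 49 without immunoglobulin and T cell receptor genes in the sums (4.56%), and 47 to 80 when each library was left out, where 12.8% to 17.2% of all genes were. The causes were not tested. Genes past the false discovery rate numbered 0 as deposited and 4 with array weights (Map2k7, Emp1, Ccl17, Gm49320), and between 0 and 2 when each library was left out; none was a member. Left out in turn, the libraries gave medians of -0.45 to -0.28 for the large and -0.42 to -0.24 for the small subunit. With the replicate number as a block, 0 genes passed, 18 members had an unadjusted p under 0.05 (3.55% of all genes) and the median was -0.36. Same-numbered libraries correlated at -0.11, 0.14 and -0.02 in their deviations, and differently numbered ones at -0.16 to 0.19. No pairing by number is visible in these values, but with 3 libraries per group they cannot exclude one.

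Some named genes changed sign, most of them near 0 but also Larp1 (0.51), Rps27rt (-0.34) and Snhg8 (-0.20). With equal sums over all genes or without immunoglobulin and T cell receptor genes, Rpl7l1 was at 0.01 and 0.04, Mrpl30 at 0.00 and 0.02, Eif3c at 0.05 and 0.07, Polr1c at 0.05 and 0.07, Eif4ebp1 at 0.00 and 0.03, and in the second Cox6a1 was at 0.01 and Ncl at 0.02. Leaving mitochondrial and ribosomal genes out as well gave Eif3c 0.03 and Polr1c 0.03, and median-of-ratios scaling 0.01 for both. With the length trend removed, Cox6a1 was at 0.11, Cox8a 0.08, Eif3c 0.02, Polr1c 0.06 and Eif4ebp1 0.02, and with coding transcript length, chosen after the data were seen, Rpl7l1 0.02, Mrpl30 0.03, Cox6a1 0.02, Eif3c 0.01 and Polr1c 0.07. Array weights gave Rps27rt 0.10, Cox6a1 0.09, Cox8a 0.15, Snhg8 0.10, Eif1 0.03, Eif4ebp1 0.01, Eef2 -0.02, Mtor -0.07 and Larp1 -0.09. Leaving out each library in turn, these genes ranged from -0.69 to 0.01 (Rps27rt), -0.27 to 0.04 (Cox8a), -0.23 to 0.05 (Eif1), -0.17 to 0.03 (Ncl), -0.13 to 0.24 (Polr1d), -0.08 to 0.04 (Polr1c), -0.15 to 0.03 (Eif4ebp1) and -0.07 to 0.23 (Mtor). Without vehicle library 3, Rps27rt was at 0.01, Mrpl30 0.07, Cox8a 0.04, Eif1 0.05, Polr1c 0.04, Eef2 -0.09 and Mtor -0.07. Other left-out libraries gave Eif3c 0.04 and Ncl 0.03 (vehicle 1), Eif3c 0.01 and Polr1d -0.13 (vehicle 2), Polr1d -0.02 and Eef2 -0.02 (atorvastatin 1), Mrpl30 0.10, Ncl 0.01 and Polr1c 0.01 (atorvastatin 2), and Eif4ebp1 0.03 (atorvastatin 3). The depth behind the values is unknown, so the counting error of low genes could not be given.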
